A study of Mus musculus with 53 samples.

Results

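Cytosolic ribosomal protein genes encode the proteins of the large (Rpl) and small (Rps) subunits of the ribosome outside the mitochondrion. The genes described here were chosen by symbol alone: every protein-coding Rpl or Rps gene of that naming scheme, with Rplp0, Rplp1, Rplp2 and Rpsa, present in the bulk and the single-cell tables. This gave 83 genes of 55573 in the bulk tables and 57010 in the single-cell tables. They comprise 43 large-subunit genes, 31 small-subunit genes including Rpsa, the 3 genes of the ribosomal stalk and 6 paralogues whose symbols carry an l suffix (Rpl3l, Rpl7l1, Rpl10l, Rpl22l1, Rpl39l and Rps27l). A further 305 entries are pseudogenes named for these genes and serve only as a comparison.

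The study deleted Insm1, or Tead1 together with Tead2, in the mouse cerebellum with Atoh1Cre, a Cre active in the rhombic lip lineage, which gives granule cells and also unipolar brush cells and glutamatergic neurons of the cerebellar nuclei, so that cells of other lineages keep the floxed genes. At postnatal day 2 (P2) bulk RNA was measured in 4 Insm1 controls (Insm1fl/fl), 4 Insm1 mutants (Atoh1Cre; Insm1fl/fl), 3 Tead1/2 controls (Tead1fl/fl and Tead2fl/fl) and 4 Tead1/2 mutants (the same alleles with Atoh1Cre). All groups carry floxed alleles, each library is the cerebellum of 1 pup, and the labels put the Insm1 libraries in batch 2 and the Tead1/2 libraries in batch 3. At postnatal day 7 (P7) 10 single-cell libraries, each from 1 cerebellum, hold 2 controls and 3 mutants per allele. Library 1 of each P7 group was made from all lobules, and libraries 2 and 3 without lobules IX and X. Sexes, inferred from the counts of Xist against Ddx3y, were mixed within the groups at P2, except that all 4 Insm1 controls were female. Tead1/2 mutants 1 to 3 were male and mutant 4 was female. Results without mutant 4 therefore compare male mutants with controls of both sexes.

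The bulk libraries held 28066726 to 64518819 counts and the single-cell libraries 98416728 to 226631912 transcripts (unique molecular identifiers, UMIs), of which 4588 to 10282 cells per library were kept at medians of 6657 to 9797 UMIs. No barcode was shared between P7 libraries (0). Insm1 was lower in each Insm1 mutant at P2 (8.45 to 16.1 CPM, the counts of a gene scaled to a common library size) than in each control (30.8 to 71.9 CPM), while gene-level Tead1 overlapped between Tead1/2 controls and mutants. The library labelled Tead1/2 mutant 4 stood apart: the 25 skeletal muscle marker genes summed to 43.3 CPM in it, against 211 to 278 CPM in Tead1/2 mutants 1 to 3 and 44.7 to 49.3 CPM in their controls. Its Tead2 level (25.9 CPM) was also above that of every Tead1/2 control (22.3 to 25.7 CPM). The main Tead1/2 results on the ribosomal protein genes at P2 are therefore also given without it. In Insm1 mutants the muscle marker sum was 195 to 321 CPM, against 36.1 to 63.3 CPM in controls.

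Ribosomal protein genes are transcribed at high levels in growing cells, and their proteins are needed in near-equal amounts, so their messengers are usually present in fixed proportions. Most of these messengers begin with a C followed by a run of pyrimidines, the 5′ terminal oligopyrimidine tract, through which the mTOR pathway and Larp1 control their translation and stability. In the early postnatal cerebellum the granule cell progenitors of the external layer divide rapidly under Sonic hedgehog signalling and Mycn, a regulator of ribosome synthesis, before they leave the cell cycle and become granule neurons.

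The start sites of 63 of the 83 genes were matched in the RefSeq promoter table (assembly GRCm38.p6). Counting runs of C and T that begin with C within 20 bases of the annotated start, 51 of the 63 genes (80.952%) had a run of at least 5 bases. The same held for 53.945% of 17429 other protein-coding genes. The median longest run was 8 bases against 5. Some of these runs lie wholly before the annotated start, as in Rpl31 (13 bases, beginning 18 bases before it) and Rpl39 (8 bases, beginning 20 before). The count therefore does not measure the terminal tract of the messenger. The windows below run from 40 bases before to 26 bases from the start site onward. They are shown because they include the gene with the lowest false discovery rate (FDR) of the group at P2 (Rpl12). The gene with the smallest Tead1/2 value (Rpl28), genes named below for their function, and a paralogue without a run of 5 bases are also among them. Capitals mark the longest run.
Rps6: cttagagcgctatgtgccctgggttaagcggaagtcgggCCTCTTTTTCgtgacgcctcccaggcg
Rplp2: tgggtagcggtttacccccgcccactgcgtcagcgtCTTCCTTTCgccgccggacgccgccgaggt
Rpl38: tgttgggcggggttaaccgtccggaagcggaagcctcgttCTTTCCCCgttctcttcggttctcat
Rpl12: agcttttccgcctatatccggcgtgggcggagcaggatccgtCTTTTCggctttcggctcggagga
Rpl28: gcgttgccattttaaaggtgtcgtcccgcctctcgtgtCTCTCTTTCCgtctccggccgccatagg
Rps27: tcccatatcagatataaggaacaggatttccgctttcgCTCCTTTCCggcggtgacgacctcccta
Rpl22l1: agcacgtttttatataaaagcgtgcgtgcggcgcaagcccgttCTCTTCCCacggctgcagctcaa
Rpl7l1: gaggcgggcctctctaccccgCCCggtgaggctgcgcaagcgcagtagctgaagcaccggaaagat

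On GRCm38.p6 these windows lie at chr4:86857342-86857407 (minus strand) for Rps6, chr7:141447611-141447676 (plus) for Rplp2, chr11:114668540-114668605 (plus) for Rpl38 and chr2:32961672-32961737 (plus) for Rpl12. Rpl28 is at chr7:4792925-4792990 (plus), Rps27 at chr3:90213623-90213688 (minus), Rpl22l1 at chr3:28805468-28805533 (plus) and Rpl7l1 at chr17:46782631-46782696 (minus). Each spans an annotated start site, so its last 26 bases are transcribed. The run is 10 bases long in Rps6 and Rpl28, 9 in Rplp2 and Rps27, 8 in Rpl38 and Rpl22l1, 6 in Rpl12 and 3 in Rpl7l1. The run in Rps6 begins 1 base before the annotated start and that in Rpl38 at the start itself, whereas in Rpl7l1 the run of CCC lies 19 bases upstream.

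Rpl3l, the paralogue of Rpl3 known from skeletal and heart muscle, is shown because it is the member that appeared with the muscle-like cells at P7. It has 2 annotated start sites in the table. The window on chr17:24727766-24727851 (plus strand) at the first holds the E-box CAGCTG, a hexamer recognised by myogenic factors, beginning 20 bases before the annotated start, in capitals here, while the 300 bases around the second, with its window on chr17:24732625-24732710 (plus strand), hold none. Rpl3l is among the 51 genes with a run of at least 5 bases.
Rpl3l: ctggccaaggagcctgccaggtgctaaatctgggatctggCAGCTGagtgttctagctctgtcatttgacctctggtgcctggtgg

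CAGCTG, which is its own reverse complement, occurs in the promoters (250 bases before to 50 bases from the start) of 17.4% of 17492 genes and of 4 of the 63 members with a promoter (6.35%), Rpl3l, Rpl6, Rpl10l and Rpl35. The hexamer CATTCC, or GGAATG on the other strand, the core of the MCAT element bound by TEAD factors, occurs in 15.5% of all promoters and in 6 of the 63 (9.52%), those of Rpl22, Rpl26, Rps16, Rps24, Rps26 and Rps27. The hexamers differ in their letters and were counted separately on both strands, and a match is not a binding site.

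At P2 ribosomal protein genes took a larger share of all gene counts in Tead1/2 mutants than in their controls. The share was 2.57%, 2.56% and 2.70% in the 3 Tead1/2 controls, while the 4 mutants, in order of their numbers, had 3.24%, 3.12%, 2.92% and 2.86%. Every mutant lay above every control, and the library labelled mutant 4 was the lowest of the mutants. The means were 2.61% ± 0.0755 (SD, n = 3) and 3.04% ± 0.177 (SD, n = 4), or 3.10% ± 0.161 (SD, n = 3) without mutant 4. The Insm1 groups overlapped: 2.25%, 2.58%, 2.68% and 2.11% in controls and 3.14%, 2.36%, 2.54% and 2.48% in mutants, with means of 2.405% ± 0.266 and 2.63% ± 0.349 (SD, n = 4 each). Insm1 mutant 1 alone exceeded the Insm1 controls. In bulk RNA a change in the make-up of cells and a change in RNA per cell cannot be told apart.

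**Figure D1:**
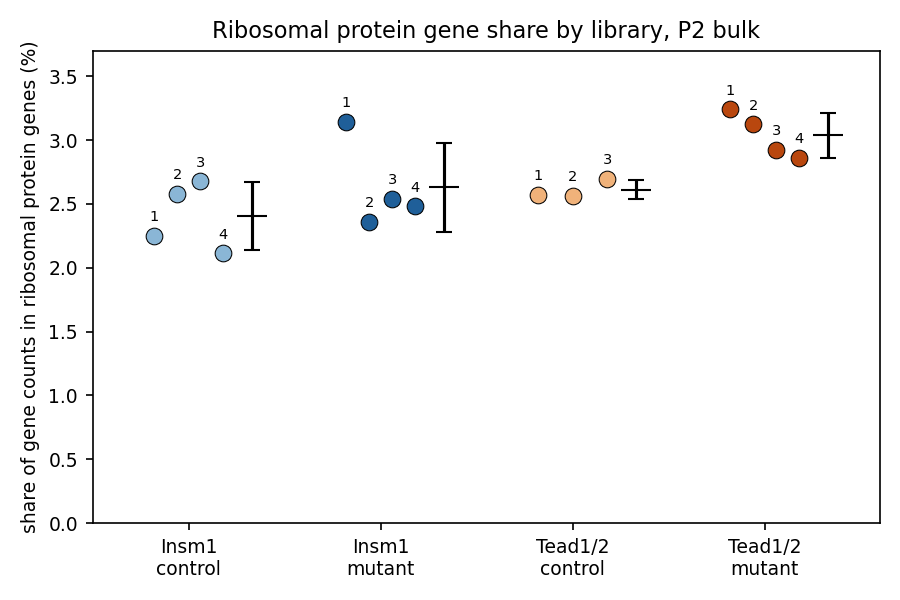
Share of all gene counts in the 83 ribosomal protein genes (y axis, percent) for each P2 bulk library (points, with the library number) in the 4 groups (x axis); black bars give the mean ± SD. The 4 Tead1/2 mutants sit between 2.86% and 3.24%, above the 3 controls at 2.56% to 2.70%, and the Insm1 groups overlap.

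Beside these shares, the summed astroglia markers (12 genes) stood at 3140 to 3311 CPM in Tead1/2 controls, 3474 to 3743 CPM in mutants 1 to 3 and 3258 CPM in mutant 4. The 13 granule neuron markers stood at 3638 to 3859 CPM in those controls, 3211 to 3450 CPM in mutants 1 to 3 and 3687 CPM in mutant 4, so mutant 4 was within the control range for both lists and just below it for muscle. Of the 15 marker lists 2 separated all 4 Tead1/2 mutants, mutant 4 included, from the controls, as the ribosomal protein share did. The 9 Purkinje markers stood at 1622 to 1660 CPM in controls and 1885, 1698, 1924 and 1704 CPM in mutants, and the 10 oligodendrocyte lineage markers at 351 to 354 CPM in controls and 309 to 344 CPM in mutants. Mitochondrial-genome genes took 3.17% to 4.70% of counts in Tead1/2 controls and 3.25% to 3.74% in mutants. With those genes out of the total the Tead1/2 means were 2.71% and 3.15%. Insm1 mutant 1 had the highest astroglia sum of the Insm1 libraries, 3695 CPM against 2736 to 3137 CPM in the other 7. The part of these marker differences in the ribosomal protein values was not tested.

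Of the 83 genes 80 passed the count filter at P2. In Tead1/2 mutants all 80 had higher values than in controls, by a median of 0.27 on the log2 scale against -0.01 over all genes, and by 0.15 (Rpl28) to 0.44 (Rpl3). The large-subunit, small-subunit, stalk and paralogue genes had medians of 0.27, 0.27, 0.25 and 0.28. edgeR called 0 of the 80 at FDR under 0.05, with 0 of 20247 genes called in all (0% called), while 78 of the 80 and 4052 of the 20247 had an unadjusted p under 0.05. For 68 of the 80, every mutant exceeded every control, which held for 9.96% of all genes tested. The reverse held for 0 of the 80 and 6.67% of all genes. DESeq2 called 73 of the genes higher, against 701 of 40946 genes in all (1.71%). Without the count filter edgeR called 75, against 789 of 40946 (1.93%). The 40946 include genes under the count filter, so these shares have a wider base than the 20247 genes of the main fit. With the replicate number as a block edgeR called 0, against 0.706% of genes called higher.

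With the library labelled Tead1/2 mutant 4 left out, 33 of the 80 were called higher by edgeR, against 1.98% of 20234 genes called higher, and the median was 0.29. Every mutant then exceeded every control for 69 of the 80, against 14.5% of all genes, and was below every control for 0 of the 80, against 11.2%. Leaving out any other library of this comparison kept the edgeR count at 0 and the median between 0.23 and 0.31.

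Rpl12, which binds ribosomal RNA at the base of the stalk, stood at 253, 246 and 255 CPM in Tead1/2 controls and at 328, 330, 310 and 304 CPM in mutants (log2 change 0.34, SE 0.05, edgeR FDR 0.0825, and 0.00896 without mutant 4). These groups did not overlap, and mutant 4 sat with the other mutants. Rps6, the small-subunit protein phosphorylated downstream of mTOR, stood at 358, 360 and 373 CPM against 469, 448, 417 and 407 CPM (0.26, SE 0.06, FDR 0.098, and 0.0372 without mutant 4). Rpl3, at the peptidyl transferase centre, had the largest value but overlapping groups, 411, 590 and 516 CPM against 755, 718, 691 and 584 CPM (0.44, SE 0.12, FDR 0.112, and 0.0434 without mutant 4). The overlap came from mutant 4 lying below control 2. Rpl35a stood highest in 1 library: 125, 127 and 138 CPM in controls against 237, 164, 148 and 153 CPM in mutants (0.43, SE 0.15, FDR 0.157). At the other end Rpl28 stood at 158, 185 and 183 CPM against 210, 204, 183 and 185 CPM (0.15, SE 0.08, FDR 0.289), with overlap.

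**Figure D2:**
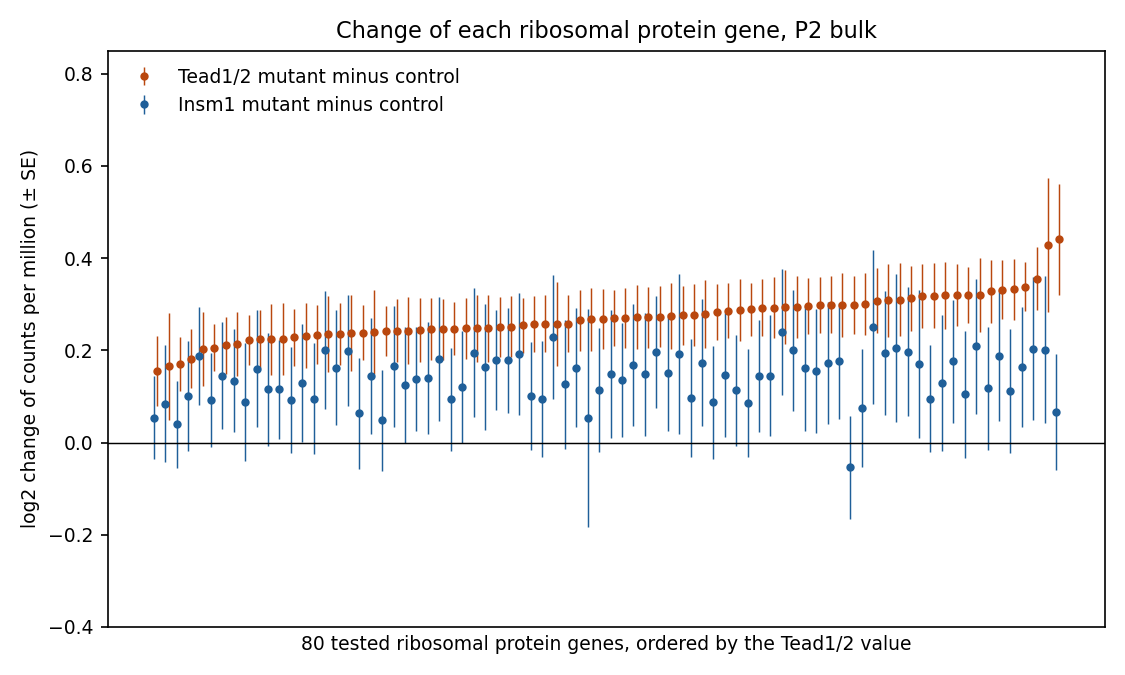
Log2 change of mutant against control (y axis, points with SE) for each of the 80 tested ribosomal protein genes (x axis, ordered by the Tead1/2 value) at P2. All 80 Tead1/2 values lie above 0, from 0.15 to 0.44, and 79 of the 80 Insm1 values do, from -0.05 to 0.25.

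Among the genes with functions beyond the core, the stalk proteins recruit translation factors to the ribosome. Rplp0 stood at 820, 808 and 861 CPM in Tead1/2 controls and 1036, 1022, 930 and 957 CPM in mutants (log2 change 0.25, SE 0.06), and Rplp2 at 196, 195 and 213 CPM against 249, 254, 215 and 237 CPM (0.24, SE 0.07), both without overlap. Rplp1 overlapped, with 426, 444 and 487 CPM against 592, 570, 453 and 550 CPM (0.26, SE 0.09), because mutant 3 lay within the control range. Rpl5 and Rpl11 carry 5S ribosomal RNA and bind Mdm2 when assembly fails. Rpl5 did not overlap (454, 463 and 485 CPM against 619, 569, 539 and 523 CPM), and Rpl11 did (217, 242 and 272 CPM against 321, 297, 272 and 262 CPM). The log2 changes of Rpsa, also known as a laminin-binding protein, Rpl38, known for its part in the translation of Hox messengers, and Rps14 were 0.22, 0.25 and 0.32, with no overlap. That of Rps19, a gene mutated in Diamond-Blackfan anaemia, was 0.22, with overlap. Without mutant 4, edgeR called Rplp0 (0.26, FDR 0.0494), Rpl5 (0.30, FDR 0.043) and Rps14 (0.35, FDR 0.0388) higher. The other genes of this paragraph had 0.23 to 0.28 there, with FDR of 0.0716 to 0.196.

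The 3 expressed paralogues and their partners all had higher values in Tead1/2 mutants at P2, and the difference within a pair was not tested. Rpl22l1 stood at 53.4, 48.1 and 55.2 CPM in Tead1/2 controls and 70.8, 66.3, 62.9 and 60.4 CPM in mutants (0.32, SE 0.07), against 0.30 (SE 0.07) for Rpl22. Rps27l, a target of p53, had a log2 change of 0.28 (SE 0.06) against 0.31 (SE 0.08) for Rps27, and Rpl7l1 0.21 (SE 0.05) against 0.32 (SE 0.06) for Rpl7. None of these 6 overlapped between groups, and edgeR FDR lay between 0.0898 and 0.104. Rpl39, Rpl10 and Rps4x, whose paralogues were near 0 or no members, had values of 0.36, 0.26 and 0.33. Without mutant 4, edgeR called Rpl22l1 (0.35, FDR 0.0294), Rpl22 (0.32, FDR 0.0487) and Rpl7 (0.36, FDR 0.0104) higher, as well as Rpl39, Rpl10 and Rps4x (FDR 0.0193, 0.0438 and 0.0127). Rps27l, Rps27 and Rpl7l1 had FDR of 0.052, 0.0581 and 0.0577 there. The remaining paralogues were near 0 in all 15 libraries: Rpl10l had 0 counts, Rpl39l, known from testis, 0 to 8, and Rpl3l 0 to 3. Rpl3l had 0 to 1 counts in Tead1/2 mutants and 0 to 3 in Insm1 mutants, too few to compare with the controls (0 to 1 and 1 to 2).

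In Insm1 mutants at P2, 79 of the 80 genes had higher values than in controls, by a median of 0.15 against 0.01 over all genes, from -0.05 (Rpl26) to 0.25 (Rps21). edgeR called 0 of the 80 (135 of 19582 genes, 0.689% called), with 0 at an unadjusted p under 0.05 and a lowest FDR of 0.646 (Rps26), and DESeq2 called 0. In 0 of the 80 did every mutant exceed every control, against 3.07% of all genes, and in 0 was every mutant lower, against 3.16%. The values rested on Insm1 mutant 1: without it the median was 0.03 and 54 of the 80 were higher. Rps21 stood at 97.6, 121, 119 and 75.5 CPM in controls and 156, 101, 115 and 118 CPM in mutants (log2 change 0.25, SE 0.17). Rps6 stood at 325, 382, 378 and 296 CPM against 455, 318, 358 and 340 CPM (0.09, SE 0.13). In both genes only mutant 1 exceeded the controls. Rpl26 differed from the rest, with 237, 302, 293 and 224 CPM in controls and 225 CPM in mutant 1, and values inside the control range in the other mutants.

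The difference between both mutant effects at P2 was tested directly. All 80 genes had a smaller change in Insm1 than in Tead1/2 mutants, by a median of -0.13 and a range of -0.38 (Rpl3) to -0.02 (Rps26), but edgeR called 0 of the 80 and 0 of 20837 genes (0% called), DESeq2 called 0 of them, and 1 of the 80 had an unadjusted p under 0.05. Without Insm1 mutant 1 the median was -0.25 and 29 of the 80 had an unadjusted p under 0.05. That count was not set against the share of all genes, and the 80 genes vary together. Without Tead1/2 mutant 4 the median was -0.15, with 0 of the 80 called and 2 at an unadjusted p under 0.05. The alleles differ in batch, so allele and batch cannot be told apart in their levels.

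Among lists of genes linked to ribosomes in other ways, edgeR called none of the listed genes in either P2 comparison. In Tead1/2 mutants it called 0 of all 20247 genes, so that count says nothing about the lists. In Insm1 mutants it called 0.689% of all genes. The lists' medians were not tested against that of the ribosomal protein genes. Of 21 translation genes with a terminal oligopyrimidine tract, such as Eef1a1 and Tpt1, all 21 were higher in Tead1/2 mutants (median 0.21) and 17 in Insm1 mutants (0.08). Of 78 mitochondrial ribosomal protein genes 73 were higher in Tead1/2 mutants (0.15) and 71 in Insm1 mutants (0.08). Of 44 ribosome biogenesis genes, such as Ncl and Fbl, 26 were higher in Tead1/2 mutants (0.03) and 21 in Insm1 mutants (-0.00408). Of 11 growth regulators, 3 and 2 were higher (medians -0.11 and -0.12). This list holds activators such as Mycn and Mtor and inhibitors such as Tsc1, Tsc2 and Maf1, so its median gives no direction of growth. Of 12 p53 targets 8 and 6 were higher (0.04 and -0.07). The pseudogenes, whose counts can be reads of their parent genes, had a median of 0.23 over 71 tested in Tead1/2 and 0.12 over 68 in Insm1 mutants. Adding pseudogene counts to their parent genes left 0 members called in both comparisons, with a Tead1/2 median of 0.27. That count was not set against the share of all genes called in the same fit. By the longest run near the annotated start, the median in Tead1/2 mutants was 0.26 over 48 genes with a run of at least 5 bases. It was 0.28 over 12 with a shorter run and 0.28 over 20 without a RefSeq promoter. In Insm1 mutants these medians were 0.15, 0.12 and 0.15, and the differences were not tested. Without Tead1/2 mutant 4 the 3 Tead1/2 medians by run were 0.28, 0.29 and 0.30. Runs lying wholly before the start were counted too, so these medians do not compare genes with and without a terminal tract. The other list medians in Tead1/2 mutants were then 0.23 (translation genes, of which edgeR called 5 of 21 higher), 0.14 (mitochondrial ribosomal proteins, 0 called), 0.04 (ribosome biogenesis, 0 called), -0.10 (growth regulators, 1 of 11 called higher), 0.03 (p53 targets, 0 called) and 0.26 (pseudogenes, 12 of 71 called higher).

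Over the 15 bulk libraries, with group means removed, the 80 genes varied almost as 1 unit. Each gene's correlation with the mean of the other 79 had a median of 0.977, and 73 of the 80 exceeded 0.9. The points share library, depth and batch, and no test is attached. The exceptions were Rpl26 (0.366), Rps16 (0.581), Rpl3 (0.618), Rpl28 (0.736), Rpl34 (0.779), Rpl29 (0.871) and Rpl35a (0.894). Among 16291 other genes the 10 most like the mean of the ribosomal protein genes included Rack1 (0.991), a small-subunit scaffold, Btf3 (0.9895), Atp5o (0.989), Tma7 (0.989), Ndufa7 (0.988), Atp5h (0.987), Gm9625, Eif3i and Gm15501. Rack1 had a Tead1/2 log2 change of 0.26 (SE 0.06, edgeR FDR 0.0932). The mitochondrial ATP synthase and complex I genes Atp5o and Ndufa7 had 0.18 each (FDR 0.156 and 0.206).

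At P7 the genes took 0.136% to 0.179% of the UMIs of all kept cells in the 10 libraries. The assays differ in chemistry, so the P2 and P7 shares are not compared. Over all kept cells the share was 0.1497% and 0.176% in Insm1 controls and 0.158% to 0.179% in Insm1 mutants. In Tead1/2 controls it was 0.136% and 0.140%, and in the mutants 0.141%, 0.171% and 0.175%. The Tead1/2 mutants lay above their controls, mutant 1 by only 0.1405% against 0.140%, and the Insm1 groups overlapped. Mutant 1 no longer lay above both Tead1/2 controls with all deposited barcodes (0.1407% against 0.139% and 0.1424%), with barcodes of at least 500 UMIs or doublets kept (0.1391% in both), with Scrublet's own threshold (0.1405% against 0.1424% in control 1) or among cells of at most 10000 UMIs (0.1194% against 0.1388% and 0.140%). Tead1/2 mutants 2 and 3 stayed above both controls in these settings. Cells named for skeletal muscle made up 0.0969% to 0.340% of kept cells in the 4 controls and 18.2% to 36.7% in the 6 mutants, with a ribosomal protein share of 0.176% to 0.212% in the mutants, so the mix of cells differed strongly between the groups.

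Cells were clustered without the ribosomal protein genes and named from marker genes, so that the following comparison between classes does not use the genes that set the classes. In each of the 10 libraries the genes took a larger share of UMIs in granule progenitor-like cells than in granule neuron-like cells. In Insm1 controls 1 and 2 the shares were 0.204% and 0.235% in progenitor-like and 0.122% and 0.141% in neuron-like cells. Tead1/2 controls had 0.168% and 0.171% in progenitor-like and 0.101% and 0.104% in neuron-like cells. Of 80 members with at least 10 UMIs in every library, counted over both classes together, 80 were higher in progenitor-like cells in all 10 libraries, which held for 46.5% of 14400 genes. The median log2 ratio was 0.885 against 0.246 over those genes, from 0.68 (Rpl27, Rpl7l1 and Rps27l) to 1.21 (Rpsa) and 1.22 (Rpl3). Rpl3 averaged 48.8 CPM in progenitor-like and 20.4 CPM in neuron-like cells, Rpsa 40.4 and 16.9 CPM, and Rps6 12.02 and 6.10 CPM. Median depth was 5436 to 8234 UMIs in the former and 4994 to 7183 UMIs in the latter.

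The ratio of the progenitor-like to the neuron-like share separated the genotypes over the classes as named. The clusters within these classes differed between controls and mutants, as given below. It was 1.67 and 1.67 in Insm1 controls and 1.67 and 1.65 in Tead1/2 controls. It was 2.22, 2.15 and 2.04 in the Insm1 mutants and 2.32, 2.37 and 2.36 in the Tead1/2 mutants. All 4 controls lay within 1.65 to 1.67 and all 6 mutants at 2.04 or above. Among cells of at most 10000 UMIs the ratio was 2.16 to 2.37 in controls and 2.72 to 3.19 in mutants, again without overlap. Most of the gap lay on the neuron side: Insm1 mutants had 0.103% to 0.118% in neuron-like cells and Tead1/2 mutants 0.0634% to 0.0883%, below both of their controls, whereas the progenitor-like shares overlapped with controls in both alleles (0.221% to 0.254% and 0.147% to 0.208%). As a value over chosen members the ratio carries no test.

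**Figure D3:**
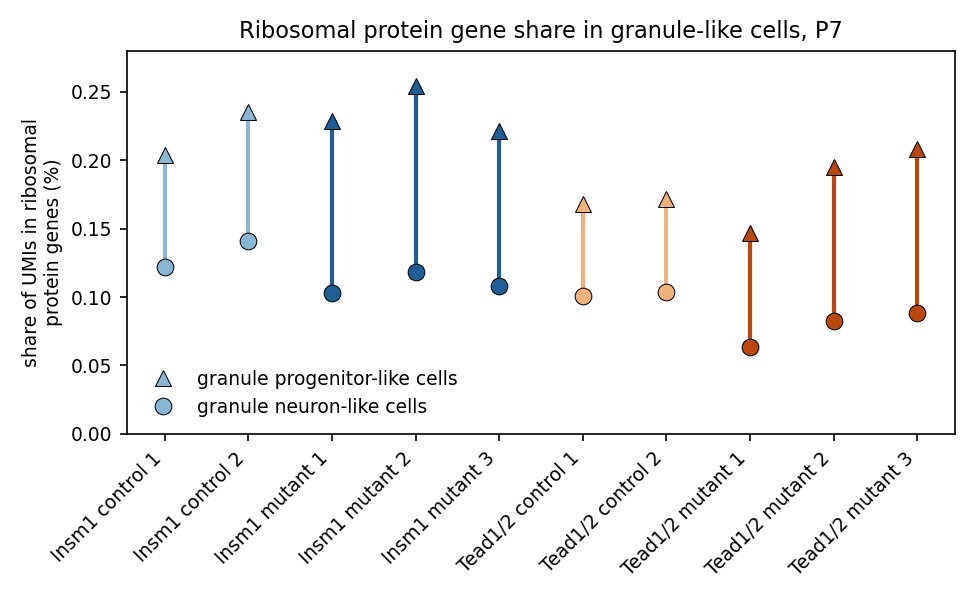
Share of UMIs in ribosomal protein genes (y axis, percent) in granule progenitor-like cells (triangles) and granule neuron-like cells (circles) of each P7 library (x axis); the line joins the values of 1 library. The progenitor-like value is the higher in all 10 libraries, and the ratio of the values is 1.65 to 1.67 in controls and 2.04 to 2.37 in mutants.

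Different clusters held these classes in controls and mutants. Of neuron-like cells, clusters 21 and 22 held 27.4% and 55.1% in Insm1 mutants, and in Tead1/2 mutants 47.1% and 29.6%, against at most 1.23% in controls. Of progenitor-like cells, cluster 11 held 52.4% in Insm1 mutants and cluster 30 held 48.0% in Tead1/2 mutants, against at most 0.110% in controls. Within cluster 12, present in both, the share was 0.0941% and 0.0974% in Tead1/2 controls and 0.0680%, 0.0854% and 0.0929% in mutants, without overlap, and 0.111% and 0.128% in Insm1 controls against 0.0954% to 0.114% in mutants, with overlap. In cluster 15 it was 0.0582% and 0.0550% in Tead1/2 controls and 0.0463%, 0.0533% and 0.0552% in mutants, which overlap. Cluster 8, deeper than the others (medians of 14366 to 21253.5 UMIs in controls), had 0.127% to 0.172% in controls and held 14.2% and 24.0% of the neuron-like cells of Tead1/2 and Insm1 controls but 0.50% and 0.56% of those of the mutants. It was named by 11 granule neuron markers, against 10 granule progenitor markers, and the ratio was not computed without it. How much of the class difference, and of the ratio, comes from this make-up was not tested.

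Summed per library and tested with edgeR, granule neuron-like cells of Tead1/2 mutants had 14 of 80 genes called lower and 0 higher, against 11.4% of 15299 genes called lower, with a median of -0.32. The count of 0 was not set against the share of all genes called higher. Rpl5 fell from 24.4 and 25.0 CPM in controls to 16.4, 17.2 and 16.2 CPM in mutants (log2 change -0.52, SE 0.10, FDR 0.00128). Rps15a fell from 32.96 and 37.4 to 25.0, 22.2 and 20.7 CPM (-0.59, SE 0.12, FDR 0.00289). Rps28, Rpl13, Rps23, Rpl26, Rpl7, Rpl22l1, Rps3a1 and Rps25 fell by 0.46 to 0.73 on the log2 scale, with FDR of 0.00671 to 0.0418, and every mutant was below both controls for each. The count was 9 among cells of at most 10000 UMIs, 5 without Tead1/2 control 1, 3 without control 2 and 8 without mutant 1. With the dissection (library 1 of each group against the others) as a block it was 23, a count not set against the share of all genes called with that block. In Insm1 mutants 1 of 80 fell, Rps20, from 12.9 and 18.9 CPM to 11.1, 9.46 and 8.82 CPM (-0.63, SE 0.18, FDR 0.0202), against 8.94% of all genes called lower, with a median of -0.15. That call was lost without Insm1 control 2 or Insm1 mutant 3, and the count was 2 without Insm1 control 1 or Tead1/2 mutant 2 or 3 and 5 without Tead1/2 mutant 1. Muscle markers in these cells summed to 60.7 to 89.1 CPM in the controls and 163 to 713 CPM in the mutants. The 6 unipolar brush cell markers summed to 758 to 834 CPM in the controls and 2077 to 2447 CPM in the mutants of both alleles, and the 12 granule progenitor markers to 2262 to 2678 CPM and 1327 to 1982 CPM. Mitochondrial-genome genes took 0.501% and 0.530% of UMIs in Tead1/2 controls and 0.534% to 0.8695% in Tead1/2 mutants, and in Insm1 libraries 0.564% and 0.6185% in controls and 0.419% to 0.5185% in mutants, the opposite direction. The part of these differences was not tested.

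In granule progenitor-like cells 2 genes rose in Insm1 mutants, against 11.3% of 15619 genes called higher. Rpl3 rose from 39.6 and 39.4 CPM to 51.7, 58.6 and 47.0 CPM (log2 change 0.44, SE 0.13, edgeR FDR 0.0298), and Rps15a from 51.1 and 51.6 to 58.5, 58.1 and 59.0 CPM (0.22, SE 0.07, FDR 0.0461). Without Insm1 control 1, control 2 or mutant 2 edgeR called 0, and without Tead1/2 control 1 or 2, which share in the estimate of spread, 1. DESeq2 and cells of at most 10000 UMIs each left 1 called. The median was 0.08. Muscle markers in the progenitor-like cells summed to 73.7 to 98.1 CPM in controls and 223 to 837 CPM in mutants, and the progenitor markers to 6174 to 6492 CPM in Insm1 controls and 5149 to 5506 CPM in Insm1 mutants. Mitochondrial-genome genes took 0.803% and 0.845% of UMIs in these cells of Insm1 controls and 0.5965% to 0.764% in Insm1 mutants. The part of these values was not tested. In Tead1/2 mutants 0 were called by edgeR (21.5% of all genes called) and by DESeq2, with 2 at an unadjusted p under 0.05 and a median of 0.04, and 6 were called without Tead1/2 mutant 1. Rpl3 stood at 40.02 and 48.2 CPM against 44.1, 61.8 and 55.8 CPM there. Among ribosome biogenesis genes 18 of 44 rose in Insm1 and 2 in Tead1/2 mutants, where 1 also fell, with medians of 0.25 and 0.11. The difference between alleles was called for 0 members (1.52% of genes called), with 1 at an unadjusted p under 0.05.

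Over the granule lineage as a whole (progenitor-like and neuron-like cells summed) 1 gene was called in each allele. Rpl3 rose in Insm1 mutants from 30.3 and 30.1 to 37.0, 41.4 and 35.2 CPM (0.36, SE 0.12, edgeR FDR 0.0489), against 13.3% of 17181 genes called higher. Rpl5 fell in Tead1/2 mutants from 32.3 and 32.3 to 26.7, 26.7 and 26.99 CPM (-0.24, SE 0.07, FDR 0.0319), against 9.45% called lower. Both calls are fragile. The Rpl3 count was 0 without any 1 of Insm1 control 2, the 3 Insm1 mutants, the 2 Tead1/2 controls and Tead1/2 mutant 3, 2 without Tead1/2 mutant 1, and without Insm1 control 1 the gene called was a lower one. The Tead1/2 count was 0 without Tead1/2 control 1 or 2 or mutant 2 or 3, 2 without Insm1 control 1 or 2, and 5 without Tead1/2 mutant 1, of which 3 were higher and 2 lower. The medians were -0.005 and -0.10, and the difference between alleles was called for 0 members (1.03% of genes called) by edgeR and by DESeq2, with 4 at an unadjusted p under 0.05.

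Over all kept cells Tead1/2 mutants had 10 of 81 genes called higher and 0 lower, against 25.9% of 24198 genes called higher, with a median of 0.13 against 0.06 over all genes. The count of 0 was not set against the share of all genes called lower. The 10 include Rpl3l, which passed the count filter through the mutants (below), so its call is no independent test. Rps2 rose from 17.2 and 15.6 CPM to 21.6, 29.6 and 28.8 CPM (log2 change 0.69, SE 0.15, edgeR FDR 0.0034), Rplp1 from 8.59 and 7.33 to 10.3, 13.95 and 14.1 CPM (0.67, SE 0.19, FDR 0.0155) and Rpl39 from 5.42 and 5.59 to 6.69, 7.70 and 8.08 CPM (0.43, SE 0.09, FDR 0.00223). Rpl14, Rpl23, Rpl36a, Rpl8, Rps18 and Rpl37 rose by 0.25 to 0.44, and in Rpl8 alone of these mutant 1 overlapped the controls. Mitochondrial-genome genes took 0.618% and 0.703% of the UMIs of all kept cells in Tead1/2 controls and 1.06% to 1.76% in Tead1/2 mutants, while the Insm1 groups overlapped (0.714% to 0.869% and 0.751% to 0.902%). The muscle markers summed to 68.4 and 80.7 CPM in Tead1/2 controls and 14136 to 23522 CPM in the mutants. The part of both in these calls was not tested. Among cells of at most 10000 UMIs 0 were called and the median was -0.06, where Rpl37 had -0.04. The count was 5 without Tead1/2 control 1, 3 without control 2, 4 without mutant 2 and 25 without mutant 1. These counts were not set against the share of all genes called in each setting. In Insm1 mutants 2 of 81 were called higher, Rpl3 and Rpl3l, the latter with the same limit, against 18.2% of all genes. The median was -0.01. Without Insm1 control 2, Insm1 mutant 1 or 3, or Tead1/2 control 1 or 2 the count was 1, and without Insm1 control 1 or Tead1/2 mutant 1 it was 4, of which 3 were lower in the former. The difference between alleles was called for 0 of 81 members (3.41% of all genes called) by edgeR and 3 by DESeq2, all 3 with the lower log2 change in Insm1 mutants, with 9 at an unadjusted p under 0.05 in edgeR.

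Rpl3l, the muscle paralogue of Rpl3, rose over all kept cells in both alleles, and Rpl3 in Insm1 mutants. Rpl3 stood at 30.2 and 27.9 CPM in Insm1 controls and 35.2, 37.6 and 33.8 CPM in Insm1 mutants over all kept cells (0.31, SE 0.10, edgeR FDR 0.0421), and at 31.4 and 35.3 CPM against 35.1, 44.5 and 36.8 CPM in Tead1/2 libraries (0.21, SE 0.10, FDR 0.121). Rpl3l had 9 and 6 UMIs in Insm1 controls against 29, 43 and 27 in the mutants. For Tead1/2 the controls had 11 and 7 UMIs and the mutants 72, 139 and 82. The groups did not overlap in CPM in either allele (log2 change 2.62, SE 0.29 for Insm1, and 3.09, SE 0.27 for Tead1/2). With 6 to 11 UMIs per control library, Rpl3l passed the count filter through the mutants, so these values describe it and are no independent test. Of its 425 UMIs 358 (84.24%) were in muscle-like cells, and the level outside them, pooled over libraries, was 0 to 0.390 CPM by class. In muscle-like cells of the mutants it was 0.337 to 0.716 CPM for Insm1 and 1.124 to 1.80 CPM for Tead1/2. Cells of the Purkinje class in Insm1 mutants had 0.572 CPM (13 UMIs), as high as the 0.555 CPM (79 UMIs) of the pooled muscle-like cells of the same mutants. In the granule lineage it had 0 to 4 UMIs per library. Rpl10l had 1 UMI and Rpl39l 3 in all kept cells, so neither accompanied the muscle-like cells at this depth.

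**Figure D4:**
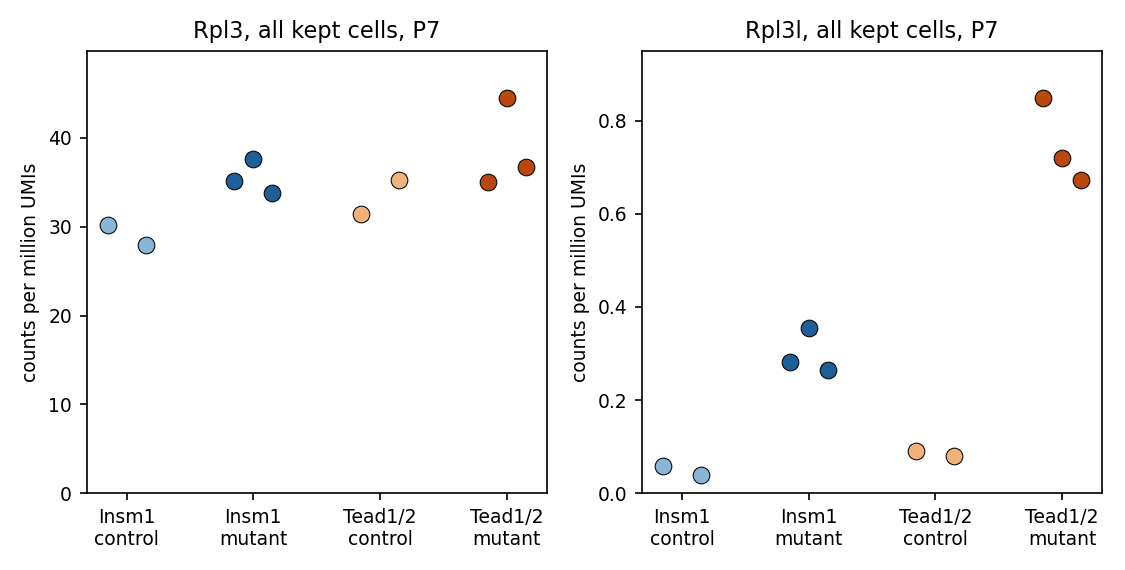
CPM of UMIs (y axis) of Rpl3 (left) and Rpl3l (right) over all kept cells of each P7 library (points) in the 4 groups (x axis); the scales differ. Rpl3l lies at 0.0391 to 0.0911 in the 4 controls and at 0.265 to 0.849 in the 6 mutants, and Rpl3 is higher in each Insm1 mutant than in both Insm1 controls.

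Outside the granule lineage the largest counts were in astroglia-like cells. In Insm1 mutants 30 of 80 genes fell, against 20.1% of 15236 genes called lower, with a median of -0.35, and in Tead1/2 mutants 33 fell, against 18.7%, with a median of -0.44. None rose in either (0 called higher), a count not set against the share of all genes called higher. Rps3a1 fell from 24.7 and 25.4 CPM in Insm1 controls to 16.1, 15.9 and 17.5 CPM (log2 change -0.55, SE 0.12, edgeR FDR 0.00315), and Rpl13a from 55.8 and 68.6 to 37.5, 46.1 and 40.9 CPM (-0.53, SE 0.13, FDR 0.00431). Rps15a fell from 38.2 and 42.6 CPM in Tead1/2 controls to 25.3, 27.7 and 22.7 CPM (-0.61, SE 0.11, FDR 0.000801). Rpl21, Rps16, Rps7, Rps29, Rps26, Rpl37a, Rpl41 and Rps9 in Insm1 mutants and Rpsa, Rpl13a, Rpl24, Rpl13, Rpl21, Rpl34 and Rps27a in Tead1/2 mutants fell by 0.48 to 0.76 on the log2 scale.

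Depth, make-up and markers moved with these astroglial values. In the astroglia-like cells the 13 granule neuron markers summed to 9902 to 11976 CPM in controls and 5411 to 7353 CPM in mutants, the 12 granule progenitor markers to 3500 to 3961 CPM and 1690 to 2282 CPM, and the 12 astroglia markers to 2370 to 4565 CPM and 6559 to 9689 CPM. None of these ranges overlapped. Mitochondrial-genome genes took 0.730% and 0.858% of UMIs in Insm1 controls and 0.557% to 0.671% in Insm1 mutants, while the Tead1/2 groups overlapped (0.634% and 0.715% against 0.710% to 0.969%). The part of these values in the ribosomal protein values was not tested. The class had median depths of 14667 to 21707 UMIs per cell in controls and 9001 to 12117.5 UMIs in mutants, and the deep cluster 2 held 75.0% and 64.9% of it in Insm1 and Tead1/2 controls against 44.5% and 32.0% in the mutants. Among cells of at most 10000 UMIs, where 67 of the genes could be tested, 1 was called in Insm1 and 0 in Tead1/2 mutants, with medians of -0.18 and -0.23. There Rps27a, which fell in Tead1/2 mutants over all depths, had a log2 change of 0.000158. Within the shallower cluster 6 the share was 0.0966% and 0.1095% in Insm1 controls against 0.0894% to 0.101% in mutants. The Tead1/2 controls had 0.0755% and 0.0679% there and the mutants 0.0581% to 0.0726%, and both alleles overlapped. Within cluster 2 it was 0.125% and 0.121% in Tead1/2 controls against 0.0843% to 0.1105% in mutants, which do not overlap, and 0.137% and 0.169% in Insm1 controls against 0.123% to 0.138% in mutants, which do. The Insm1 count was 2 without Insm1 control 2, 11 without Insm1 mutant 1 and 12 without Insm1 mutant 3, and it was also smaller with DESeq2. The Tead1/2 count was 17 without Tead1/2 control 1 or 2 and 18 without mutant 1. Without Insm1 control 1 and control 2 the Insm1 median was -0.50 and -0.19, respectively.

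In GABAergic interneuron-like cells 5 of 80 genes rose in Insm1 mutants, against 9.24% of 15343 genes called higher, with a median of 0.30, and 1 rose in Tead1/2 mutants, against 8.21%, with a median of 0.10. Rps3a1 rose from 13.8 and 14.4 CPM to 22.7, 24.1 and 22.8 CPM in Insm1 mutants (0.66, SE 0.15, edgeR FDR 0.00932), and Rpl12, Rpl13, Rpl34 and Rpl3 rose by 1.05, 0.85, 0.76 and 0.73. Rpl3 rose in Tead1/2 mutants from 17.1 and 20.3 to 24.9, 36.6 and 28.8 CPM (0.67, SE 0.17, FDR 0.0207). Cluster 18, with 46 of its 2262 cells from controls, held 40.1% and 32.7% of this class in Insm1 and Tead1/2 mutants, and the muscle marker sum of the class was 79.1 to 129 CPM in controls against 1254 to 3745 CPM in mutants. The class's own 10 GABAergic interneuron markers summed to 2749 to 3383 CPM in controls and 1370 to 2017 CPM in mutants, the Purkinje markers to 11175 to 14225 CPM and 4680 to 7321 CPM, and the granule neuron markers to 7726 to 8098 CPM and 8422 to 10450 CPM. Median depth was 4475.5 and 5141 UMIs in Insm1 controls and 6372.5 to 9325 UMIs in Insm1 mutants, and 5675 and 6115 UMIs against 6034 to 9164 UMIs for Tead1/2. The mitochondrial share was 0.4575% and 0.512% in Tead1/2 controls and 0.617% to 0.867% in Tead1/2 mutants, and overlapped between Insm1 groups. The part of these values was not tested. In the other clusters the share did not separate the genotypes: in cluster 20 it was 0.0713% and 0.0836% in Insm1 controls and 0.0757% to 0.0807% in Insm1 mutants, and in cluster 19 0.126% and 0.137% against 0.119% to 0.134%. Among cells of at most 10000 UMIs 0 were called in either allele and the medians were 0.02 and -0.12. The Insm1 count was 2 without Insm1 control 1, 1 without control 2, 3 without Insm1 mutant 3 and 10 without Tead1/2 mutant 1, and the Tead1/2 count was 0 without either Tead1/2 control or mutant 2 and 9 without mutant 1.

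**Figure D5:**
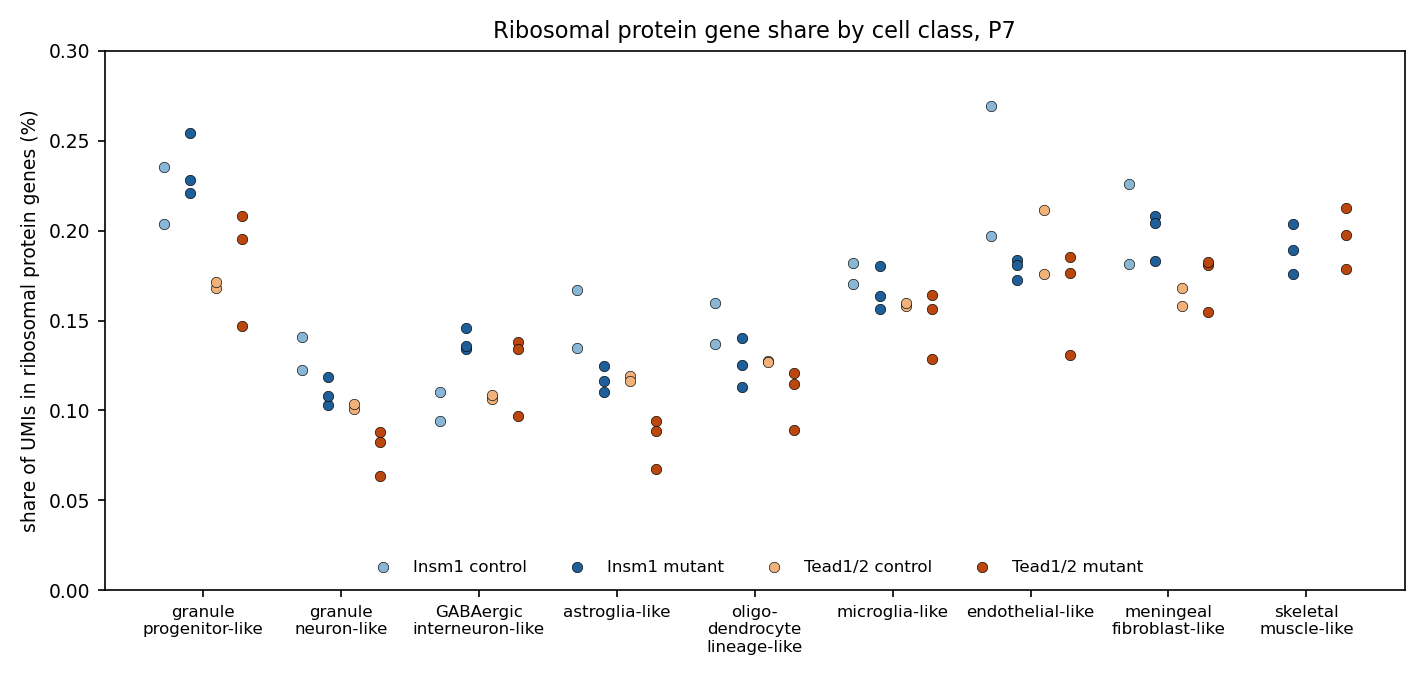
Share of UMIs in ribosomal protein genes (y axis, percent) by cell class (x axis) and P7 library (points, coloured by group; libraries with at least 50 cells of the class). Granule neuron-like and astroglia-like shares are lower in every mutant than in both controls of its allele, and muscle-like cells appear for the 6 mutants only.

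The other classes held few calls. In endothelial-like cells 3 genes fell in Insm1 mutants, Rplp2 and Rplp1 among them by 0.92 and 0.97 (edgeR FDR 0.0198 and 0.0357, against 2.31% of 12021 genes called lower). DESeq2 called 0 there, as did edgeR among cells of at most 10000 UMIs. The class had median depths of 12787 and 20073 UMIs in Insm1 controls and 6610 to 11317 UMIs in Insm1 mutants, and granule neuron markers of 7969 and 9078 CPM against 6151 to 6396 CPM. Its mitochondrial share was 0.860% and 1.17% in Insm1 controls against 0.805% to 0.855% in Insm1 mutants, and the part of these values was not tested. In Tead1/2 mutants 0 were called (1.02% of genes called), with 5 at an unadjusted p under 0.05 and 0 by DESeq2. The Insm1 count was 1 without Insm1 control 1 and 0 without control 2 or any Insm1 mutant. In oligodendrocyte lineage-like cells Rpl35 fell in Insm1 mutants from 6.24 and 6.32 to 3.83, 3.604 and 3.03 CPM (-0.81, SE 0.23, FDR 0.0278, against 8.93% of 15480 genes called lower). DESeq2 called 0, as did edgeR among cells of at most 10000 UMIs, where the Insm1 median was 0.0275. In Tead1/2 mutants Rpl5, Rpl21 and Rps15a fell there by 0.43, 0.52 and 0.36, and Rpl11 rose by 0.44 (13.7% of genes called lower and 12.9% higher), of which DESeq2 called 1 and edgeR 0 among cells of at most 10000 UMIs and 2 when scaled without the members. Median depth in this class was 16821 to 20875 UMIs in controls and 10469.5 to 15355 UMIs in mutants, and granule neuron markers summed to 8651 to 10416 CPM and 3746 to 7301 CPM. The mitochondrial share was 0.756% and 0.863% in Insm1 controls and 0.608% to 0.748% in Insm1 mutants, and overlapped between Tead1/2 groups, and the part of these values was not tested. The Insm1 count was 0 without Insm1 control 2 or Insm1 mutant 3, 4 without mutant 2, and 5 and 2 without Tead1/2 mutants 1 and 3. The Tead1/2 count was 1 without either control and 2 without any of the Tead1/2 mutants. In meningeal fibroblast-like cells Rpl29 rose (0.88, FDR 0.0477) and Rpl35a fell (-0.75, FDR 0.0476) in Tead1/2 mutants, against 8.89% of 13911 genes called higher and 11.4% lower, calls that edgeR lost in part or whole without any 1 of the 10 libraries (1 called without an Insm1 mutant, 0 without any other). DESeq2 called 0 of them, as did edgeR among cells of at most 10000 UMIs. In the meningeal class the muscle markers summed to 72.0 and 101 CPM in Tead1/2 controls and 550 to 2616 CPM in Tead1/2 mutants, and the granule neuron markers to 8532 and 9345 CPM against 4251 to 5357 CPM. Median depth was 13628 and 14865.5 UMIs against 8526 to 12470.5 UMIs, and the mitochondrial share 0.629% and 0.848% against 0.874% to 1.12%, and their part was not tested. In Insm1 mutants 0 were called (12.6% of genes called, 3 of the members at an unadjusted p under 0.05, 0 by DESeq2, 1 without Insm1 control 1). In microglia-like cells 0 were called in both alleles (0.0159% and 0.23% of genes called, 5 and 1 members at an unadjusted p under 0.05, 0 by DESeq2). In these 4 classes and in astroglia-like, GABAergic interneuron-like and granule neuron-like cells, edgeR and DESeq2 called 0 members in the test of the difference between alleles, with 1 to 7 at an unadjusted p under 0.05 in edgeR. Of all genes edgeR called 0.184% in astroglia-like, 0.0587% in GABAergic interneuron-like, 0.529% in granule neuron-like, 0.0416% in endothelial-like, 0.136% in oligodendrocyte lineage-like, 0.0144% in meningeal fibroblast-like and 0% in microglia-like cells.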

How the data were processed

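Bulk RNA of whole cerebellum and Parse single-cell RNA of fixed, dissociated cerebellar cells were analysed; the chromatin samples of the series were not analysed here. For the bulk libraries the deposited values are expected counts by gene from RSEM, and per the submitters' processing notes Trim Galore, STAR 2.7.9a and RSEM 1.3.3 were used with GRCm38.p6. These were rounded to whole numbers. The bulk table named for each allele holds the other allele's columns, so columns were matched to samples by their own names. For P7 the authors deposited UMI counts per gene and barcode, with gene tables that name GRCm39. No submitted cell annotation was used.

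The ribosomal protein genes and the gene lists were chosen with earlier results of these data known. Genes were named by role (paralogues and partners, stalk genes, Rpsa, Rps6, Rpl5, Rpl11, Rpl38, Rps14 and Rps19), by call (at most 10 per direction and comparison, by FDR), as the highest and lowest change, or as the 10 genes most alike in the bulk libraries. Some genes that this rule selects are not reported here by name; they stay in every count and median. Rpl35a at P2 and the class comparison in Rps6 were added after their values were seen.

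edgeR 4.0.16 (quasi-likelihood, TMM scaling, Benjamini-Hochberg adjustment over all genes tested, FDR under 0.05) was run per allele at P2 and over all 10 libraries at P7, on counts summed per library and population. DESeq2 1.42.0 was an alternative. P7 barcodes were kept at 1000 UMIs, 500 genes and under 15% mitochondrial UMIs. Scrublet's own threshold marked 0% to 56.9% of barcodes, so the highest 4% of scores were left out of each library instead. Cells formed 38 clusters, of which 4 stayed unnamed. Other choices tried were scaling, the count filter, doublets, each left-out library and the replicate block (the replicate number at P2, the dissection at P7). A term for the inferred sex was also fitted at P2, and its result is not reported here. After seeing the data, cells of at most 10000 UMIs were added as a choice. On simulated data with known changes edgeR recovered 47% and 68% of genes changed by 0.5 and 1 on the log2 scale in the Tead1/2 P2 design, 38% and 69% in the Insm1 P2 design, and, over all kept cells at P7, 25% and 51% for Tead1/2 and 30% and 55% for Insm1. The changed genes were drawn at random from all genes tested and simulated independently. The ribosomal protein genes vary together and changed by less than 0.5 at P2, so these rates do not give the power for them. Each group is small, and p-values set a difference against the spread between libraries of a group. At P7 that spread was estimated over all 10 libraries and includes the dissection. Some counts under the other choices, or at an unadjusted p under 0.05, are given without a share of all genes. They were not set against that share in the same fit, so a shift between fits is no result about these genes alone.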

Additional observations from a re-analysis of the deposited data

Results flagged for a closer look

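In 75 groups of 4 libraries tested for a library far from the others, 3 values at P2 stood apart, all in Insm1 mutant 1; chance alone would flag a few percent of such groups, and the genes share their libraries. Rps26 was at 290 CPM (289.83) against 224 to 233 CPM in the other Insm1 mutants. Rplp2 was at 249 CPM (248.629) against 193 to 202 CPM. Rpl38, a large-subunit protein, was at 192 CPM (191.619) against 138 to 146 CPM. The same library had the highest ribosomal protein share of the Insm1 libraries, and the cause was not tested.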

How the results depend on the processing

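At P2 the Tead1/2 count of genes called went from 0 to 73 with DESeq2 and 75 without the count filter, and ranged from 0 to 33 over left-out libraries; the Tead1/2 control share was 2.711% without mitochondrial genes in the total. Same-numbered control and mutant libraries had correlations of deviations of -0.245 to 0.363 (Insm1) and -0.117 to -0.012 (Tead1/2) at P2 and -0.175 to 0.026 at P7. These single values per pair do not decide whether samples were paired, and at P7 library 1 of each group shares its dissection. The replicate block left 0 ribosomal protein genes called in both P2 comparisons (medians 0.141 and 0.285). At P7, over all kept cells, the Insm1 count was 1 with Scrublet's threshold and 1 to 4 over left-out libraries (4, mostly lower, without Insm1 control 1; medians -0.111 to 0.0728), and the Tead1/2 count was 0 at 10000 UMIs or fewer (median -0.0626) and 3 to 25 over left-out libraries. In the granule lineage the Tead1/2 count was 2 with DESeq2, the replicate block or doublets kept, 0 without the filter or at 10000 UMIs or fewer, and 0 to 5 over left-out libraries; the Insm1 count was 3 without the filter, with the direction turned, 0 with doublets kept or Scrublet's threshold, and 0 to 2 over left-out libraries (medians -0.149 to 0.0793).

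At 10000 UMIs or fewer the counts were 1 and 0 in astroglia-like cells (Insm1 and Tead1/2; medians -0.184 and -0.229), 0 and 0 in GABAergic (0.0186 and -0.122), 3 and 9 in granule neuron-like, 1 in Insm1 progenitor-like, 0 in Insm1 endothelial-like, 0 and 0 in oligodendrocyte lineage-like (Insm1 median 0.0275) and 0 in Tead1/2 meningeal cells (Insm1 median -0.255), with a Tead1/2 microglia-like median of -0.230. Rpl37 (all kept, -0.044) and Rps27a (0.000158, astroglia-like, Tead1/2) turned direction there. DESeq2 called 18 in Insm1 astroglia-like, 0 in Insm1 endothelial-like, 1 in Insm1 progenitor-like, 0 in Tead1/2 meningeal, and 0 and 1 in oligodendrocyte lineage-like cells. Without the count filter the counts were 5 (Insm1 endothelial-like), 15 and 3 (GABAergic), 10 and 31 (granule neuron-like), 1 (Tead1/2 progenitor-like), 1 and 1 (meningeal) and 8 (Insm1 oligodendrocyte lineage-like). With the replicate block, which at P7 is the dissection (library 1 of each group against 2 and 3; the library number itself as a block was not run), they were 2 and 23 (granule neuron-like), 1 and 0 (meningeal), and 5 and 7 (oligodendrocyte lineage-like), and scaling without the members gave 2 in Tead1/2 oligodendrocyte lineage-like cells.

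Over left-out libraries the counts ranged from 2 to 40 and 17 to 36 in astroglia-like cells (Insm1 medians -0.497 to -0.189), 0 to 3 in Insm1 endothelial-like (-0.593 to -0.149), 1 to 10 and 0 to 9 in GABAergic, 0 to 5 and 3 to 16 in granule neuron-like, 0 to 3 and 0 to 6 in progenitor-like, 0 to 1 in both alleles of meningeal (Insm1 -0.230 to 0.0714) and 0 to 5 and 1 to 4 in oligodendrocyte lineage-like cells (Insm1 -0.330 to -0.106). Of the values of single genes, 3694 kept direction and side of the threshold, 84 passed it, 237 lost it and 2 reversed. The causes were not tested. Outside the Tead1/2 comparison at P2, counts under these choices were not set against the share of all genes called in the same fit. The number of genes called also moved: in the granule lineage of Insm1 mutants it was 4288 without the filter and 2749 without Insm1 control 1. Genes of few UMIs at P7 limit what can be detected.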
